A study of Mus musculus with 4 samples.

Results

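This account concerns 8 genes for nuclear regulators of the erythroid, megakaryocyte or mast cell programmes of blood formation. The 8 are Gata1, Gata2, Gfi1b, Klf1, Zfpm1, Tal1, Lmo2 and Runx1. They were chosen by name, with earlier results of these data known, and all 8 were found by symbol among the 26286 genes of the deposited count table. The series compared LSK cells, the lineage-negative, Sca-1 and Kit positive fraction of C57BL/6 mouse bone marrow that holds stem cells and multipotent progenitors. It holds 2 libraries labelled Hhex-deleted, with the genotype given as Hhex deletion, and 2 wild-type libraries. The 4 libraries are called del1 and del2 (labelled Hhex-deleted) and WT1 and WT2 (wild-type), after their replicate numbers, or the del and WT libraries. Hhex encodes a homeobox protein, which the title of the series links to self-renewal and Cdkn2a. The labels give no allele design, Cre driver, age, number of animals or pooling, so p-values reflect no more than the spread among these 4 libraries, which may be technical.

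Gata1 and Gata2 are zinc finger proteins that bind the letters GATA. Gata2 acts in stem cells and early progenitors, and Gata1 takes over many of its sites as erythroid and megakaryocyte cells mature, while mast cells use both. Zfpm1, also called FOG-1, has no such DNA site of its own and works by holding on to a GATA factor. Tal1 is a basic helix-loop-helix protein that pairs with E proteins and is joined to GATA factors by the LIM-domain protein Lmo2. Gfi1b is a zinc finger repressor, Klf1 activates globin and other red cell genes, and Runx1, with its partner Cbfb, is needed for the first blood stem cells and for megakaryocytes.

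To show the letters that these proteins read, RefSeq promoter windows (build GRCm38.p6) were searched over the 250 bases before each start. A total of 7 of the 8 genes had at least 1 window, 10 windows in all, and Lmo2 had no entry. The GATA words searched, on either strand, were AGATAA with its close variant AGATAG, and TGATAA with its close variant TGATAG. They occurred in 3 windows, those of Gfi1b, Klf1 and the first of Tal1's 2 starts. Across all 32817 windows of this length, 26.6% held such a word. The windows lie at chr2:28621983-28622232 on the minus strand for Gfi1b, chr8:84901732-84901981 on the plus strand for Klf1 and chr4:115056176-115056425 on the plus strand for Tal1. They are shown because Gfi1b and Tal1 are the factors that passed the test and Klf1 is the other factor with a GATA word. Each is printed 5′ to 3′ on the gene's strand, with the GATA word in capitals:
Gfi1b: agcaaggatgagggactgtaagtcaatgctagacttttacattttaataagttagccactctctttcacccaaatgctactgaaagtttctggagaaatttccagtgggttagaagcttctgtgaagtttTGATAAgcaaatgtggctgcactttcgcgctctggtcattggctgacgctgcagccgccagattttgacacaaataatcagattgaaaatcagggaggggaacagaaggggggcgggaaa
Tal1: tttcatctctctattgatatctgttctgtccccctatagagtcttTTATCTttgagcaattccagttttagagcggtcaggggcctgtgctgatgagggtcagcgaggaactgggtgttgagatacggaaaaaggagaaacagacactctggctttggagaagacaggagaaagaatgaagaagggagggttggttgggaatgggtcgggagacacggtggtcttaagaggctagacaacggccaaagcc
Klf1: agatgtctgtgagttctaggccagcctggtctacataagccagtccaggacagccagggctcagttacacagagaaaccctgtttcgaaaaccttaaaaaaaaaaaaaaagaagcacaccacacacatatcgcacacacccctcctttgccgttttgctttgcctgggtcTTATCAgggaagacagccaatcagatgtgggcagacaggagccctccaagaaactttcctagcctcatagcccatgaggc

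The word begins 120 bases before the start in Gfi1b, where it reads TGATAA, 80 bases before it in Klf1 (TTATCA, on the other strand) and 205 bases before it in Tal1 (TTATCT, on the other strand). Klf-type letters, CCNCNCCC on either strand with overlapping matches allowed, were in 8 of the 10 windows, against 45.9% of all windows. The E-box CANNTG, read by Tal1 with its partners, was in 4 of 10, against 66.2%, and the Runx letters TGTGGT or TGCGGT were in 1 of 10, against 18.6%. These are matches of letters only, and no binding was measured.

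Total counts lay between 27871827 and 29501591 per library. Hhex itself had 179 and 188 CPM (counts scaled to library size) in the libraries labelled Hhex-deleted, against 127 and 115 CPM in wild-type, with an edgeR adjusted p of 0.0271. The labels therefore rest on the submitters, and directions below follow the libraries as labelled. A gene-level count includes exons outside a deleted part, and the cause of the higher Hhex level was not tested. The library del1 stood apart by sex markers, with 2662 CPM of Xist, against 2.59 CPM in del2 and 2.66 and 1.89 CPM in wild-type, so results are also given without it. Kit was at 605 and 698 CPM in the libraries labelled Hhex-deleted, against 566 and 601 CPM in wild-type, and Ly6a, which encodes Sca-1, at 20.7 and 42.5 CPM in del libraries against 25.4 and 25.4 CPM in WT libraries. The lineage genes Cd3e, Cd8a and Ly6g were at or below 0.398 CPM in every library. Of 13 tested gate and lineage markers 3 rose by edgeR's test and none fell, against 1.48% of all tested genes called higher. Among them, Cd79a, a B cell receptor gene, was at 9.22 and 15.6 CPM in del libraries against 1.64 and 2.77 CPM in WT libraries (log2 2.49 ± 0.37, SE, adjusted p = 0.0361), and Cd48, a surface gene of multipotent and committed progenitors, at 212 and 232 CPM in del libraries against 148 and 139 CPM in WT libraries (log2 0.63 ± 0.09, SE, adjusted p = 0.0239). The part of such cells in the values of the 8 factors was not tested.

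All 8 factors passed the filter on low counts, and 7 of 8 had a fold change above 0. By edgeR's quasi-likelihood test 2 of them rose in the libraries labelled Hhex-deleted, Gfi1b and Tal1, and none fell. Over all 14912 tested genes 2.6% passed this test in either direction and 1.48% passed it as higher. DESeq2 called 4 higher, with Gata1 and Gata2 added, against 3.31% of all genes, and limma-voom 0, against 0.825%. With 1 library left out the number called was 2 without del1 (2.4% of all genes called higher), 2 without del2 (1.52%), 0 without WT1 (0.776%) and 0 without WT2 (0.549%). Without adjustment, 4 of the 8, Gata1, Gata2, Gfi1b and Tal1, had a p under 0.05 and a higher level, against 7.59% of all tested genes, and none a lower one, against 8.23%. The groups did not overlap for 5 of the 8, Gata1, Gata2, Gfi1b, Klf1 and Tal1, each of which was higher in both libraries labelled Hhex-deleted. Of all tested genes 21.9% were higher in that way and 23.7% lower. The median log2 fold change was 0.62 over the 8 factors and -0.01 over all tested genes. In bulk RNA, more cells of one type and more RNA per cell cannot be told apart.

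**Figure D1:**
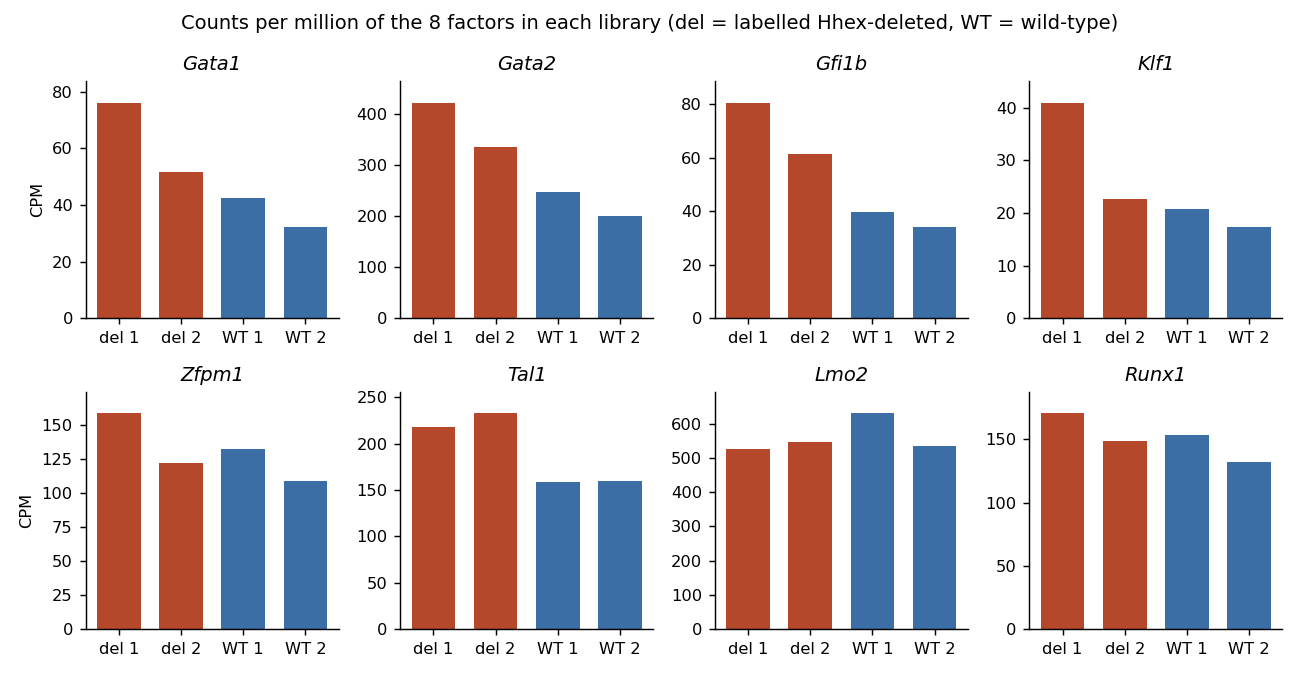
Read counts scaled to library size (CPM, vertical axes from 0, a scale of its own in each panel) of the 8 factors, 1 bar per library, with the libraries labelled Hhex-deleted (del) left of wild-type (WT). Both red bars stand above both blue bars for Gata1, Gata2, Gfi1b, Klf1 and Tal1, and the bars overlap for Zfpm1, Lmo2 and Runx1.

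Gfi1b (Entrez gene 14582, chromosome 2), the repressor that erythroid and megakaryocyte cells need, had 80.6 and 61.5 CPM in the libraries labelled Hhex-deleted, against 39.7 and 34.2 CPM in wild-type. Both libraries labelled Hhex-deleted lay above both wild-type libraries by more than the gap within either group. The means were 71.0 ± 13.6 CPM in del libraries and 36.9 ± 3.83 CPM in WT libraries (SD, n = 2 each), a 1.92-fold difference. Its log2 fold change of 0.94 ± 0.15 (SE) by edgeR (adjusted p = 0.0421) was larger than that of the other 7 factors. The call was lost without WT1 (adjusted p = 0.0853) and without WT2 (0.191), while without del1 the log2 fold change was 0.73 (0.0363).

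Tal1 (Entrez gene 21349, chromosome 4), the helix-loop-helix partner of the complex, differed by less but with the smallest spread. It stood at 217.5 and 232.6 CPM in the libraries labelled Hhex-deleted, against 158.98 and 159.4 CPM in wild-type. The difference in level, 225 ± 10.7 CPM in del libraries against 159 ± 0.279 CPM in WT libraries (SD, n = 2 each), was 1.41-fold, with a log2 difference of 0.50 ± 0.08 (SE, edgeR adjusted p = 0.0339). It was between 0.46 and 0.55 on the log2 scale whichever library was left out. The call was lost without del2 (adjusted p = 0.0619), without WT1 (0.135) and without WT2 (0.184). In contrast to the GATA factors, Tal1 was not highest in del1.

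Gata2 (Entrez gene 14461, chromosome 6), the GATA factor of stem cells and early progenitors, was at 423 and 336 CPM in the libraries labelled Hhex-deleted, against 247 and 200.3 CPM in wild-type. The groups were apart, but with a log2 difference of 0.76 ± 0.15 (SE) it did not pass the test (edgeR adjusted p = 0.0727). Gata1 (Entrez gene 14460), its successor in maturing red cells and megakaryocytes, had 76.2 and 51.6 CPM in del libraries against 42.4 and 32.3 CPM in WT libraries. Its log2 fold change was as large, 0.77 ± 0.24 (SE), with a larger SE (edgeR adjusted p = 0.221). Gata1 lies on the X chromosome, and without del1, the library with a high Xist level, its log2 fold change was 0.47 (adjusted p = 0.268). For Gata2 the same change of libraries gave 0.59 (adjusted p = 0.114).

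Klf1 (Entrez gene 16596, chromosome 8), the activator of globin genes, depended most on that library. It had 41 CPM in del1 and 22.7 CPM in del2, against 20.7 and 17.3 CPM in wild-type. The library del2 thus lay close to the wild-type libraries, and only the other one stood well above them. The log2 fold change was 0.75 ± 0.31 (SE) by edgeR (adjusted p = 0.366). It was 0.26 without del1 (adjusted p = 0.448) and 1.12 without del2, where it passed the test (0.0249).

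Zfpm1 (Entrez gene 22761, chromosome 8), the GATA cofactor, and Runx1 (12394, chromosome 16) showed overlapping groups. Zfpm1 had 158 and 122 CPM in the libraries labelled Hhex-deleted, against 132 and 109 CPM in wild-type, a log2 difference of 0.22 ± 0.16 (SE, edgeR adjusted p = 0.627). Runx1 had 171 and 149 CPM in del libraries against 153 and 132 CPM in WT libraries, a log2 difference of 0.16 ± 0.11 (SE, edgeR adjusted p = 0.582). Lmo2 (16909, chromosome 2), the bridge between Tal1 and GATA factors, was the only factor with a fold change below 0, at 527 and 547 CPM in del libraries against 631 and 535 CPM in WT libraries. Its log2 fold change of -0.12 ± 0.10 (SE) by edgeR (adjusted p = 0.672) became 0.00 without WT1. In RefSeq (GRCm38) 7 of the 8 genes, all but Klf1, overlap a long noncoding RNA gene with no row in the count table. Whether counting used the strand is not given in the sources used here, so reads of such partners cannot be told apart.

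**Figure D2:**
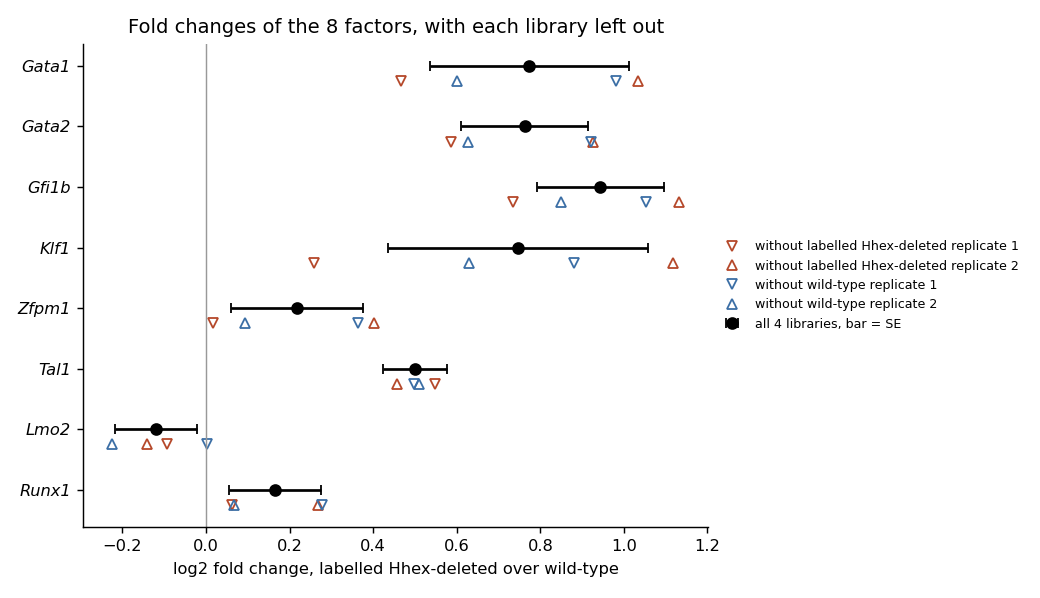
Log2 fold change (horizontal axis, labelled Hhex-deleted over wild-type) of the 8 factors, with black points for all 4 libraries, bars for the standard error and open triangles for the value with 1 library left out. Tal1 stayed between 0.46 and 0.55, while Klf1 ran from 0.26 to 1.12.

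Per kilobase of gene, the factors differed widely in level. Lmo2 was the most abundant, at 283 ± 7.65 RPKM (CPM per kilobase of gene) in the libraries labelled Hhex-deleted, against 307 ± 35.7 RPKM in wild-type (SD, n = 2 each). Gata2 followed with 117 ± 18.9 RPKM in del and 69 ± 10.3 RPKM in WT libraries, and Tal1 came next with 54.1 ± 2.57 RPKM in del and 38.3 ± 0.067 RPKM in WT libraries. Zfpm1 was at 41.4 ± 7.62 RPKM in del and 35.6 ± 4.86 RPKM in WT libraries, which overlapped Tal1 in wild-type (32.2 and 39 RPKM, against 38.2 and 38.3 RPKM for Tal1). Gata1 (35.3 ± 9.62 RPKM in del and 20.7 ± 3.92 RPKM in WT libraries), Gfi1b (39 ± 7.44 RPKM in del and 20.3 ± 2.10 RPKM in WT libraries) and Runx1 (21.7 ± 2.10 RPKM in del and 19.3 ± 2.07 RPKM in WT libraries) could not be told apart by level in wild-type. Klf1 was lowest by mean in both groups, at 20.8 ± 8.43 RPKM in del and 12.4 ± 1.56 RPKM in WT libraries. In the libraries labelled Hhex-deleted its range of 14.8 to 26.7 RPKM overlapped that of Runx1, 20.2 to 23.2 RPKM.

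**Figure D3:**
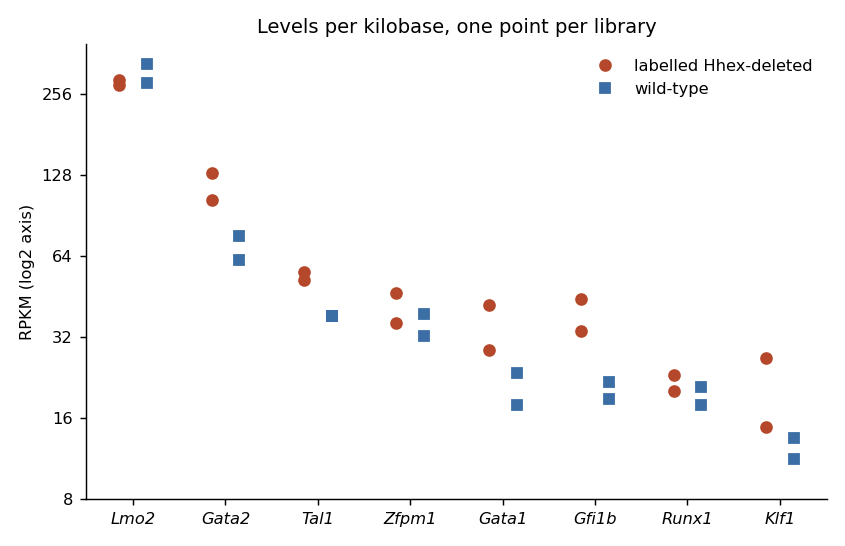
Level per kilobase (RPKM, log2 axis) of the 8 factors, ordered by their wild-type mean, with circles for the libraries labelled Hhex-deleted and squares to their right for wild-type. Lmo2 is highest, at 277 to 332 RPKM over all 4 libraries, and Gata1, Gfi1b and Runx1 share a range of 17.9 to 23.4 RPKM in wild-type.

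The factors did not all follow the same order of libraries. The library del1 was the highest of the 4 libraries for 6 of the 8, all but Tal1 and Lmo2, against 22.7% of all tested genes. Replicate 1 was mostly the higher one in both groups. Within groups, del1 was above del2 for 6 of the 8, against 51.1% of all tested genes, and WT1 above WT2 for 7, against 49.8%. By the Euclidean distance between log2 CPM values centred over the 4 libraries, Zfpm1 and Runx1 were the closest pair, at 0.14, and Gata1 and Gata2 the next, at 0.17. Gata2 and Gfi1b were 0.19 apart, while Gfi1b and Lmo2 were the farthest pair, at 1.09. For Tal1, the factor with the smallest p, the 5 nearest other genes with a mean of at least 1 CPM were Irgm1 (distance 0.04), Ttc39b (0.04), Bin1 (0.05), Marchf3 (0.05) and Nudt12 (0.06). Irgm1, an interferon-inducible GTPase gene, stood at 100.4 and 106 CPM in del libraries against 71.1 and 73.5 CPM in WT libraries. Likeness over 4 libraries is a weak measure, and it describes these libraries only.

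Ratios of levels per kilobase were then taken within each library for factors that are often set against each other, pairs picked after the values were seen. Gata2 over Gata1 was nearly steady, at 3.09 and 3.63 in the libraries labelled Hhex-deleted, against 3.25 and 3.45 in wild-type. Gata1 over Spi1 was at 0.412 and 0.326 in del libraries against 0.181 and 0.127 in WT libraries, with no overlap. Spi1, listed as Sfpi1 in the deposited tables, encodes PU.1, a myeloid and B cell factor that binds Gata1 and opposes it. Gfi1b over Gfi1, its relative in neutrophil and lymphoid cells, was at 1.73 and 1.05 in del libraries against 0.504 and 0.305 in WT libraries, also with no overlap. In both pairs the genes were already apart between groups in opposite directions. Their ratios therefore could not overlap, and this adds nothing to the values of the single genes. Tal1 over Lmo2, its partner in the complex, was at 0.189 and 0.194 in del libraries against 0.115 and 0.136 in WT libraries, and Gata1 over Zfpm1, its cofactor, at 0.901 and 0.792 in del libraries against 0.6 and 0.556 in WT libraries. Both of these are ratios within a complex, and neither overlapped between groups. Tal1 and Gata1 were already apart between groups by themselves, so these ratios are not separate evidence either. Klf1 over Fli1, a factor of megakaryocytes, was at 1.06 and 0.464 in del libraries against 0.452 and 0.356 in WT libraries, where del2 was close to WT1. With 2 libraries against 2, an exact two-sided permutation test gives a p of 0.333 to every ratio without overlap and cannot give less. Of the 8 ratios computed, 7 gave that p (0.381 after Benjamini-Hochberg adjustment), while Gata2 over Gata1 gave 1. The 7 include Gata2 over Cebpa and Tal1 over Lyl1, whose values are not shown. As the pairs were picked after the values were seen, this count adds nothing to them.

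**Figure D4:**
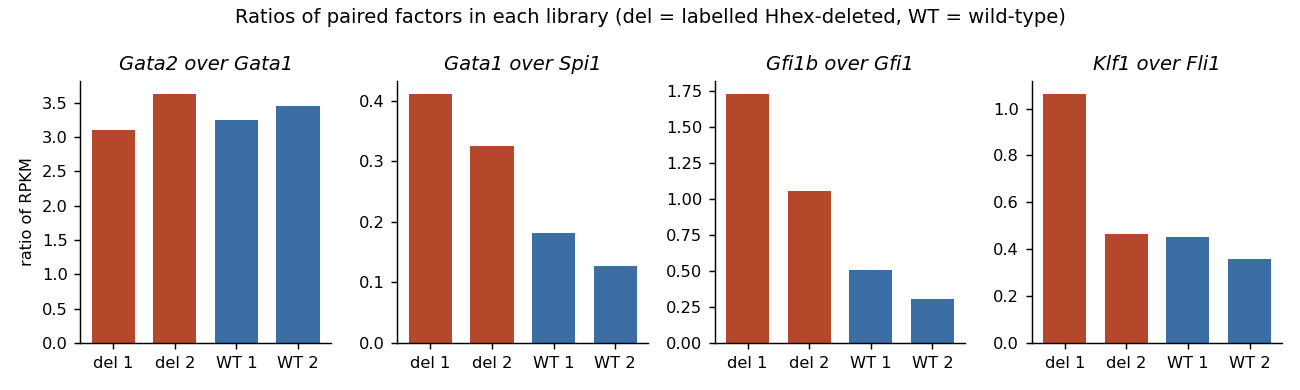
Ratios of RPKM values in each library (vertical axes from 0, a scale of its own in each panel), with the libraries labelled Hhex-deleted (del) left of wild-type (WT). Gata2 over Gata1 stays between 3.09 and 3.63 in all 4 libraries, while Gata1 over Spi1 and Gfi1b over Gfi1 are higher in both libraries labelled Hhex-deleted.

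Of 32 tested partners and cofactors of these factors none passed edgeR's test, against 2.6% of all tested genes. At an unadjusted p under 0.05, 4 were higher, against 7.59% of all tested genes, and 1 was lower, against 8.23%. DESeq2 called 2 as higher, against 3.31%, and limma-voom 0, against 0.825%. The fold change was above 0 for 24 of the 32, against 48.8% of all tested genes, with a median of 0.06 on the log2 scale. The groups were apart as higher for 14, against 21.9% of all tested genes, and as lower for 2, against 23.7%. Ldb1, which holds Lmo2 and GATA complexes together, was at 306 and 286 CPM in del libraries against 268 and 242 CPM in WT libraries, a log2 difference of 0.21 ± 0.09 (SE, edgeR adjusted p = 0.318). Cbfb, the partner of Runx1, had a log2 difference of 0.20 ± 0.09, and Kdm1a, the histone demethylase that Gfi1b recruits, of 0.02 ± 0.07 (SE, edgeR adjusted p = 0.4 and 0.928). The smallest p-values were those of Ssbp2, an Ldb1-binding protein gene (0.33 ± 0.08), Mta3, a NuRD complex subunit (0.38 ± 0.09), the Ets factor gene Erg (0.31 ± 0.10), Ssbp4 (-0.30 ± 0.11) and the E protein gene Tcf12 (0.22 ± 0.08), all with SE on the log2 scale (edgeR adjusted p from 0.101 to 0.258). Mta3 passed the test without del1, at a log2 difference of 0.47.

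Among 27 relatives in the Gata, Gfi, Klf, Zfpm, Tal, Lmo, Runx and Sp families, 21 passed the filter on low counts and none passed edgeR's test. At an unadjusted p under 0.05, 1 was higher and 2 were lower, against 7.59% and 8.23% of all tested genes. DESeq2 called 3 in either direction, against 6.63%, and limma-voom 0, against 1.35%. The fold change was above 0 for 6 of the 21, against 48.8% of all tested genes, with a median of -0.04 on the log2 scale. The groups were apart as higher for 2, against 21.9% of all tested genes, and as lower for 4, against 23.7%. The 6 genes under the filter were Gata4, Gata5, Gata6, Zfpm2, Tal2 and Lmo3, each at or below 0.035 CPM, or 1 read, in every library, where a count of 0 allows up to 0.109 CPM (3 counts, counting error only). Lmo4, a LIM-domain relative of Lmo2, was at 166 and 119 CPM in del libraries against 84 and 84.8 CPM in WT libraries, a log2 difference of 0.76 ± 0.16 (SE, edgeR adjusted p = 0.0942). It passed the test without either library labelled Hhex-deleted, at 0.49 without del1 and 0.99 without del2. Lmo1, another relative, was at 3.19 and 3.52 CPM in del libraries against 6.53 and 7 CPM in WT libraries, with -1.01 ± 0.20 (SE, edgeR adjusted p = 0.0636). Gfi1 was at 73.2 and 91.8 CPM in del libraries against 124 and 176 CPM in WT libraries, with -0.86 ± 0.21 (SE, edgeR adjusted p = 0.137), and passed the test without WT1. Klf16 and Klf9 stood at -0.22 ± 0.12 and -0.63 ± 0.36 (SE, log2 scale, edgeR adjusted p = 0.494 and 0.53). Klf6 differed mainly between replicates, at 204 and 49.0 CPM in del libraries against 302 and 31.2 CPM in WT libraries.

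Genes that erythroid cells express under these factors lay mostly above 0 in fold change, with few calls. Of 34 tested genes 1 rose, Car2, a carbonic anhydrase of red cells, and none fell, against 1.48% of all tested genes called higher. Car2 stood at 597 and 677 CPM in the libraries labelled Hhex-deleted, against 436 and 359 CPM in wild-type, a log2 difference of 0.68 ± 0.12 (SE, edgeR adjusted p = 0.049). Its call was lost whichever library was left out (adjusted p = 0.0542 without del1, 0.124 without del2, 0.0525 without WT1 and 0.203 without WT2). Groups were apart as higher for 10 of the 34, against 21.9% of all tested genes, and as lower for 1, against 23.7%. An edgeR unadjusted p under 0.05 was found for 4 as higher, against 7.59%, and for 1 as lower, against 8.23%. A total of 31 of the 34 fold changes were above 0, against 48.8% of all tested genes, and the median of the 34 was 0.37 on the log2 scale. It was 0.14 without del1 and 0.56 without del2, and del1 was the highest library for 23 of the 34. Without del2, Rhag, Rhd, Ank1 and Sptb, genes for parts of the red cell membrane, passed the test while Car2 did not.

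In some erythroid genes, as in Klf1, del1 stood well above the other 3 libraries. Ank1, which encodes ankyrin of the membrane skeleton, had 34.3 and 13.7 CPM in del libraries against 17.3 and 13.4 CPM in WT libraries, and Epor, the erythropoietin receptor gene, 28.2 and 13.2 CPM in del libraries against 16 and 12.6 CPM in WT libraries. In both, del2 lay between the WT libraries. Rhag (0.71 ± 0.23), Epb42 (0.70 ± 0.28) and Sox6 (-0.62 ± 0.20, a repressor of embryonic globin) were among the genes with the smallest p-values after Car2 (SE, log2 scale, none past edgeR's test). The alpha globin gene Hba-a1 did not share that order. It was at 111 and 191 CPM in del libraries against 112 and 167 CPM in WT libraries, and near-identical copies such as Hba-a2 can share its reads. Summed over the list, levels were 2753 and 2472 CPM in the libraries labelled Hhex-deleted, against 2075 and 1980 CPM in wild-type, and no gene of the list was without a read in any library. The part of mature red cell RNA in the values of the 8 factors was not tested.

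Of 25 tested megakaryocyte genes none passed edgeR's test. At an unadjusted p under 0.05, 2 were higher, against 7.59% of all tested genes, and 0 lower, against 8.23%. DESeq2 called 1 as higher, against 3.31%, and limma-voom 0, against 0.825%. The median log2 fold change was 0.25, or 0.09 without del1 and 0.47 without del2. Itga2b, the CD41 integrin chain and a known target of Gata1, was at 413 and 318 CPM in del libraries against 279 and 245 CPM in WT libraries, a log2 difference of 0.48 ± 0.14 (SE, edgeR adjusted p = 0.177). Without del2 it passed the test (0.66). The chemokine gene Pf4 had a log2 difference of 0.42 ± 0.24 (SE, edgeR adjusted p = 0.53). Gp5, a platelet receptor subunit gene, stood at 0.42 ± 0.13, Clec1b at 0.92 ± 0.47, Treml1 at 0.53 ± 0.27 and Cd226 at 0.97 ± 0.50. Their edgeR adjusted p-values were 0.192, 0.437, 0.445 and 0.45, and the groups overlapped for Clec1b and Treml1. Without del1 the log2 differences were 0.32, 0.40, 0.13 and 1.40. Thbs1 had 84.4 CPM in del1, against 3.38 CPM in del2 and 2.85 and 2.87 CPM in wild-type, and passed the test only without del2. Selp, the P-selectin gene, passed it as lower without del1, at -1.55. Summed CPM was 1937 and 1653 in the libraries labelled Hhex-deleted, against 1609 and 1431 in wild-type, and its part in the values of the factors was not tested.

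Mast cell and basophil genes, a list written with their direction in these libraries known, had more calls than the other lists. Of 20 tested genes 9 rose and none fell by edgeR's test, against 1.48% of all tested genes called higher. At an edgeR unadjusted p under 0.05, 13 were higher, against 7.59% of all tested genes, and 3 were lower, against 8.23%. The groups were apart as higher for 14, against 21.9%, and as lower for 4, against 23.7%. The fold change was above 0 for 14 of the 20, against 48.8%. DESeq2 called 11 as higher, against 3.31%, and 1 as lower, Srgn, at a log2 difference of -0.23. It called 6.63% of all tested genes in either direction. The median log2 fold change was 0.98, with 0.77 without del1. Cyp11a1, a steroid synthesis gene that basophils and mast cells express in mice, had 15.3 and 14.8 CPM in del libraries against 2.88 and 2.91 CPM in WT libraries, a log2 difference of 2.38 ± 0.17 (SE, edgeR adjusted p = 0.00434). Il1rl1, the interleukin 33 receptor gene, rose by 1.99 ± 0.17, Fcer1a, the alpha chain of the immunoglobulin E receptor, by 2.38 ± 0.31 and Slc18a2, a transporter that loads amines into granules, by 0.92 ± 0.10 (SE, edgeR adjusted p = 0.00942, 0.0309 and 0.0159). The others were the granule protease genes Cpa3 (2.26), Mcpt8 (1.81) and Prss34 (1.96), the receptor chain gene Ms4a2 (2.71) and Cd200r3 (2.07). The call of Fcer1a was lost without WT1 (adjusted p = 0.0501), and Cd200r3, with 1 library left out, kept its call only without del1.

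Not all genes of that list were higher. Mitf, a transcription factor that mast cells need, was at 5.62 and 4.84 CPM in del libraries against 8.43 and 9.28 CPM in WT libraries, a log2 difference of -0.76 ± 0.19 (SE, edgeR adjusted p = 0.109). Hdc, which makes histamine and is a known Gata2 target, stood at -0.50 ± 0.24 (SE, edgeR adjusted p = 0.438). The connective tissue mast cell protease genes Mcpt4 and Tpsb2 were at or below 0.219 CPM in every library, and Tpsb2 had no read in the libraries labelled Hhex-deleted, where 3 counts equal 0.103 and 0.0995 CPM. Summed over the list, levels were 3798 and 3542 CPM in the libraries labelled Hhex-deleted, against 2874 and 2922 CPM in wild-type. The part of mast cell or basophil precursors in the values of Gata2 and Gfi1b was not tested.

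**Figure D5:**
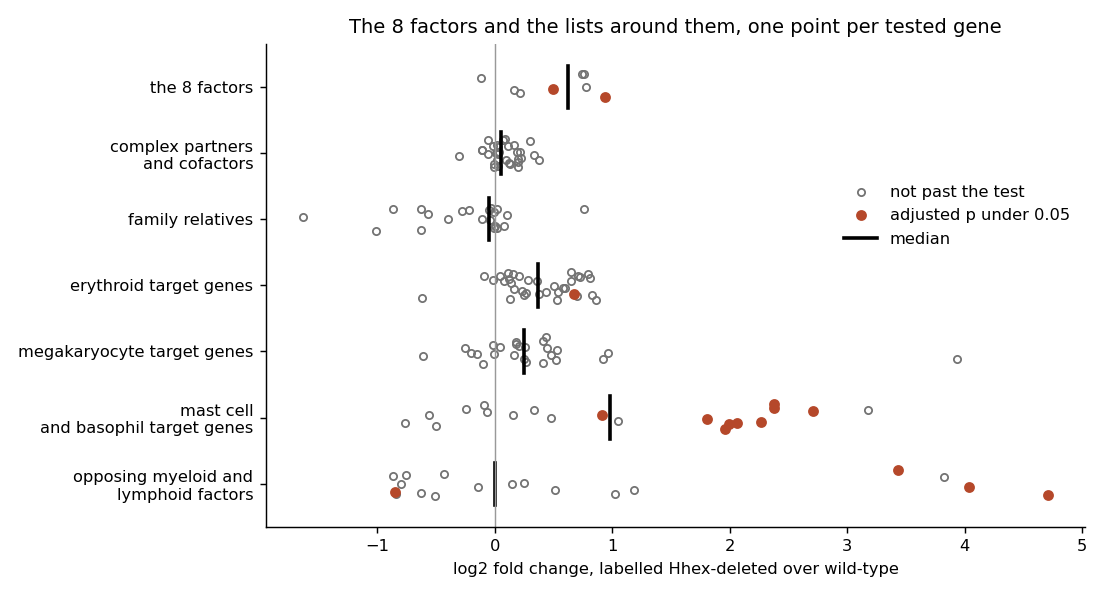
Log2 fold change (horizontal axis, labelled Hhex-deleted over wild-type) of each tested gene among the 8 factors and 6 lists around them, with filled points for an edgeR adjusted p under 0.05 and black lines for medians. The medians were 0.62 for the 8 factors, 0.37 for erythroid, 0.25 for megakaryocyte and 0.98 for mast cell and basophil genes. They were 0.06 for partners and cofactors, -0.04 for family relatives and 0.00 for opposing myeloid and lymphoid factors.

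Transcription factors of myeloid and lymphoid cells, several of which oppose this group, had values in both directions. Of 18 tested, 3 rose and 1 fell, against 2.6% of all tested genes in either direction, with a median log2 fold change of 0.00. Those that rose were the lymphoid factor genes Lef1 (4.70 ± 0.36), Pax5 (4.04 ± 0.46) and Ebf1 (3.43 ± 0.35), and all 3 were near silent in wild-type, at 0.109 to 1.02 CPM (SE, edgeR adjusted p = 0.00486, 0.0169 and 0.013). The myeloid factor gene Cebpb fell by 0.84 ± 0.14 on the log2 scale (SE, edgeR adjusted p = 0.0382), a call that, with 1 library left out, was kept only without del1. Spi1 was at 136 and 117 CPM in del libraries against 172 and 187 CPM in WT libraries, with -0.51 ± 0.10 (SE, edgeR adjusted p = 0.0653), and Irf8 stood at -0.75 ± 0.14 (SE, edgeR adjusted p = 0.0642). Both passed the test without del1, at -0.62 and -0.95. Cebpa, which directs granulocyte formation, was at 198 and 135 CPM in del libraries against 129 and 171 CPM in WT libraries, with groups that overlapped.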

How the data were processed

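RNA sequencing of LSK cells gave 4 libraries in 2 groups of 2. The authors deposited whole-number read counts per gene for 26286 genes, and log2 RPKM values for 12662 genes, per the file headers. The mouse build mm9 and the tools limma, featureCounts and Subread appear in the submitters' processing notes with no role or version. The deposited log2 RPKM values, once gene length was added back, had near-identical distributions (median range 0.000809 between libraries), a step that no label records. They served as an alternative only. For 24255 identifiers a symbol was found, in the deposited tables or in a RefSeq gene table. The other 2031 held 2.99% of counts, and 18 date-like symbols were replaced. Ahsp, Hbb-b2, Hbb-bt and Tpsab1 were not analysed here.

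Counts were tested with edgeR 4.0.16 in R 4.3.3 (quasi-likelihood, TMM factors, filterByExpr with a minimum count of 10 and a total of 15), Benjamini-Hochberg adjusted over 14912 genes, called under 0.05, with a common biological variation of 16.3% (coefficient). CPM and RPKM were computed from the counts with TMM factors. At 27871827 to 29501591 reads per library, 3 counts equal 0.0995 to 0.109 CPM. Every pair of libraries differed beyond sampling noise (chi-square per degree of freedom at least 28.5). The script was tested on simulated data. Alternatives were other scaling, no filter, DESeq2 1.42.0, limma 3.58.1 (voom, and on the log2 RPKM values), a replicate block and leaving out each library. The text names all 8 factors, up to 5 genes of each list with the smallest p, every list gene past the test, the 5 genes nearest to Tal1, and further list genes chosen by role after their values were seen. A few genes that this rule or role would name are not reported here. Factors and lists were chosen with earlier results of these data known. Some genes stand in more than 1 list, such as Gfi1 and Itga2b.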

Additional observations from a re-analysis of the deposited data

How the results depend on the processing

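Of the alternative values of the 8 factors' fold changes, 73 kept their direction and side of the threshold, 9 lost the call, 5 gained it and 1 reversed, Lmo2, which ran from -0.23 to 0.0034 on the log2 scale, the last without WT1. Among the 8 factors DESeq2 called 4 (Gata1, Gata2, Gfi1b and Tal1), against 2 by edgeR, while limma-voom and limma on the deposited log2 RPKM values called 0. Over all genes the count was 388, and it was 251 with library totals alone, 988 by DESeq2, 202 by limma-voom and 40 by limma on log2 RPKM values. DESeq2 called 2 partners, 3 relatives, 1 megakaryocyte gene and 11 myeloid and lymphoid factors, against 0, 0, 0 and 4 by edgeR. With no low-count filter 1 relative, Lmo1, was called. The 1 erythroid call became 0 with median-ratio factors, library totals alone, limma-voom and limma on log2 RPKM values. Limma on log2 RPKM values called 5 mast cell and basophil genes, against 9, and 0 myeloid and lymphoid factors. Leaving out each library in turn gave 124 to 597 calls over all genes, 0 to 2 factors, 0 to 1 partners, 0 to 1 relatives, 0 to 4 erythroid, 0 to 2 megakaryocyte and 8 to 9 mast cell and basophil genes, and 3 to 7 myeloid and lymphoid factors. The count over all genes was 597 without del1 and 124 without WT2. In those fits the lone library was assumed to vary like the other group, and equal counts could hold different genes. The cause of these changes was not tested.

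The labels give both groups replicates 1 and 2, and nothing says that a number marks a shared animal or day. With the number as a replicate block, 4 factors were called (Gata1, Gata2, Gfi1b and Tal1), 1 relative (Gfi1), and 315 genes in all (1.24% of all tested genes as higher). The erythroid gene called with the block was Car1 rather than Car2. Same-numbered libraries deviated together from their group means over genes, with a correlation of 0.326. The lowest count of a factor was 494, for Klf1 in WT2.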
